A study of Mus musculus with 8 samples.

Results

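The 42 genes described here act in the division cycle of a cell, 14 of them in S phase, when DNA is copied, and 28 in G2 and mitosis (G2/M), when the copied chromosomes are packed and pulled apart. They were chosen by name for these known roles, with earlier results of these data known, and all 42 were present among the 16791 genes of the count table. Mki67, Top2a, Cenpf, Cks2, Birc5, Cenpa, Ube2c and Cdc20 are also markers that the study took from these cells for its proliferating cluster, so their direction is no independent evidence. The S phase genes were Pcna, Mcm2, Mcm3, Mcm4, Mcm5, Mcm6, Mcm7, Gins2, Rrm1, Rrm2, Tyms, Tk1, Hells and Uhrf1. The other 28 genes were grouped by role as cyclins with CDK1 and its CKS partners, mitotic and checkpoint kinases, chromosome passenger and centromere genes, activators of anaphase, spindle genes and chromosome structure genes.

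Single endothelial cells (EC) were sequenced from the ventricles of 8 adult Pdgfb-iCreERT2-R26R-Brainbow2.1 mice with 1 library per mouse, in order to compare the healthy heart with the heart after myocardial infarction (MI). In this strain the Pdgfb promoter drives an inducible Cre, and tamoxifen then gives Pdgfb-lineage EC a permanent Confetti colour, so that EC without the colour were not measured. All mice carried both transgenes and received tamoxifen once at 150 mg/kg, 21 days before the heart was taken. In the 4 MI mice (244, 250, 255 and 256) the left anterior descending artery was tied 14 days after tamoxifen and the heart was taken 7 days post-MI, and the 4 healthy mice (227, 228, 239 and 240) had no ligation. The labels name no sham operation, so the infarct and the operation cannot be told apart. Cells were sorted as positive for CD31 and Confetti and negative for podoplanin, a lymphatic EC protein. Values per mouse are always given in the order of the mouse numbers above.

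A resting cell that enters the cycle first makes the proteins that open and copy DNA, and many of their genes are switched on by E2F transcription factors. Genes needed in G2 and mitosis follow later, and many of them carry CHR and CCAAT elements in their promoters, through which the DREAM complex keeps them silent in resting cells and B-MYB and FOXM1 activate them before division. Most EC of the adult heart are at rest, and EC division is one source of new vessels in injured tissue.

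Cells that stood in more than 1 library came first. In the healthy group, 301 cells stood in both library 227 and library 228, 2030 in both 228 and 239, and 2 in both 239 and 240, and each was kept only in the library in which it had more UMIs. This left out 301 cells of library 227, 2030 of library 228 (55.3% of its cells) and 2 of library 239, or 2333 in all. The mouse from which a shared cell came was not given by the files, so the cells kept in library 239 (2030 of its 3807 were shared with 228) may be those of mouse 228, and the healthy values per mouse and their n = 4 rest on libraries whose separateness is uncertain. Clusters of haematopoietic, pericyte and smooth muscle, fibroblast, erythroid and platelet genes (2040 cells) were left out too, and 26655 cells were kept as EC, 10684 healthy and 15971 MI. The MI libraries were deeper, with a median of 3396 to 4676 unique molecular identifiers (UMIs, each standing for 1 captured transcript) per EC, against 1866 to 2754 in the healthy libraries. The 8 endothelial markers, led by Cdh5 and Pecam1, summed to 6093 to 6561 CPM in the healthy and 6137 to 6351 CPM in the MI mice, where CPM is the UMIs of a gene or list per 1000000 EC UMIs of a mouse, although Kdr, a receptor of VEGF, had 733 to 937 CPM in the healthy and 399.8 to 589 CPM in the MI mice. The 20 haematopoietic markers had 24.5 to 167 CPM in the healthy and 304 to 842 CPM in the MI mice, with 11 of 20 higher in every MI mouse than in every healthy mouse. The counts of cell cycle genes that rose were the same without cells that had 2 or more haematopoietic UMIs after random thinning to 1000 UMIs. That fit also left out cells under 1000 UMIs, and cells with such UMIs only before thinning stayed in. Of the pericyte and smooth muscle markers 3 of 9 and of the fibroblast markers 3 of 8 were also higher in every MI mouse, with sums of 50.1 to 143 against 73.2 to 121 CPM and 12.2 to 37.2 against 28.5 to 66.1 CPM, and their part in the results was not tested. The kept cells include 423 cells led by cardiomyocyte genes (Myl2, Mb, Tnnt2).

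The first comparison asked which cell cycle genes differed in EC 7 days post-MI. UMIs were summed per mouse and tested with edgeR over 12259 genes, of which 18.8% were called higher and 19.0% lower in MI at an adjusted p below 0.05. Of the 14 S phase genes 13 rose, with a median log2 fold change of 1.38, and of the 28 G2/M genes 27 rose and 1 fell, with a median of 1.94, while the median over all genes tested was -0.02. In 40 of 42 genes every MI mouse was above every healthy mouse, which was so for 23.4% of all genes tested. The exceptions were Pcna and Tubb4b. A sum per mouse cannot tell more cells with a transcript from more transcript in each cell.

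**Figure D1:**
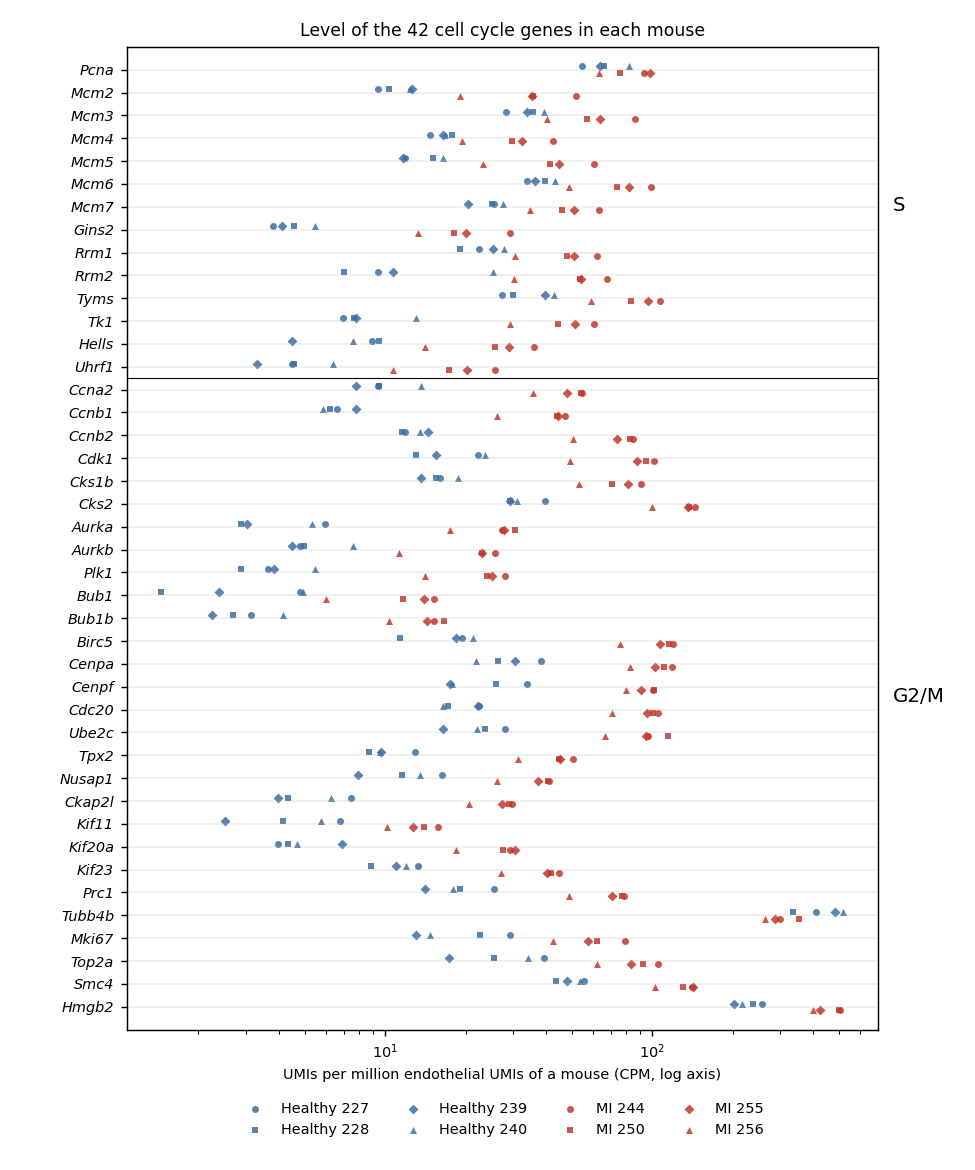
Level of each of the 42 genes in each mouse (points, CPM on a log axis; healthy blue, MI red, 1 shape per mouse number). The MI points lie to the right of all healthy points for 40 genes, and overlap with them for Pcna and Tubb4b.

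Among the S phase genes, Pcna (GRCm38 chr2:132249162-132253314), the sliding clamp that holds DNA polymerase on its template and also serves in DNA repair, had 54.8, 65.7, 63.9 and 81.7 CPM in the healthy and 93.3, 75.7, 97.9 and 63.2 CPM in the MI mice. The groups overlapped, and Pcna was the only one of the 14 that did not pass the test (log2 fold change 0.22 ± 0.15, adjusted p = 0.276; errors of fold changes are SE, n = 4 mice per group).

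Mcm2 to Mcm7 form the ring of the replicative helicase, which unwinds DNA ahead of the polymerase. Mcm6 (chr1:128331590-128359664) had 34.1, 39.7, 36.4 and 43.3 CPM in the healthy and 98.8, 73.7, 82 and 48.7 CPM in the MI mice. Mcm3 (chr1:20802968-20820312) had 28.5, 35.7, 33.9 and 39.2 CPM in the healthy and 86.1, 56.9, 63.8 and 40.2 CPM in the MI mice, so that mouse MI 256 lay just above the highest healthy mouse. Mcm7 (chr5:138164583-138172422) had 25.5, 25.2, 20.4 and 27.6 CPM in the healthy and 63.0, 46.1, 51.0 and 34.9 CPM in the MI mice. These rises were 1.86-fold for Mcm6 (adjusted p = 0.00504), 1.69-fold for Mcm3 (adjusted p = 0.0158) and 1.87-fold for Mcm7 (adjusted p = 0.00325). Among the other subunits the rise was 1.79-fold for Mcm4 but 2.98-fold for Mcm2 and 2.91-fold for Mcm5, and the differences between subunits were not tested. Gins2, a subunit of the GINS complex that completes the active helicase, rose 4.25-fold (log2 fold change 2.09 ± 0.25, adjusted p = 0.000504).

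The genes of nucleotide supply all rose. Tyms (chr5:30058202-30073617), thymidylate synthase, had 27.5, 30.2, 39.5 and 42.8 CPM in the healthy and 107, 83.0, 96.7 and 59.2 CPM in the MI mice. Every MI mouse was above every healthy mouse for Tyms, which rose 2.32-fold (log2 fold change 1.21 ± 0.19, adjusted p = 0.00147). Rrm1 (chr7:102441695-102469771), the large subunit of ribonucleotide reductase, had 22.5, 19.0, 25.4 and 27.9 CPM in the healthy and 62.1, 47.9, 50.8 and 30.7 CPM in the MI mice, with MI 256 close to the highest healthy mouse, and rose 1.90-fold (adjusted p = 0.00542). Rrm2, the small subunit that limits the enzyme to cells that copy DNA, rose 3.61-fold (log2 fold change 1.85 ± 0.36, adjusted p = 0.00374). Tk1, the thymidine kinase of dividing cells, had the largest rise of the 14 with 4.88-fold (log2 fold change 2.29 ± 0.25, adjusted p = 0.000359). Hells, a chromatin remodeller, and Uhrf1, which brings the maintenance DNA methyltransferase to newly copied DNA, rose 3.3-fold and 3.73-fold (adjusted p = 0.00241 and 0.00122).

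The promoters of Uhrf1 and Hells are shown because they are those of the S phase genes with the largest log2 fold changes among promoters that hold E2F letters. Sequences are from RefSeq (GRCm38.p6), 250 bases before to 50 after the annotated start, read 5′ to 3′ on the strand of the gene. Capitals mark E2F letters (any of TTTCCCGC, TTTGGCGC, TTTCGCGC and TTTGCCGC, on either strand) and CCAAT on either strand.
Uhrf1: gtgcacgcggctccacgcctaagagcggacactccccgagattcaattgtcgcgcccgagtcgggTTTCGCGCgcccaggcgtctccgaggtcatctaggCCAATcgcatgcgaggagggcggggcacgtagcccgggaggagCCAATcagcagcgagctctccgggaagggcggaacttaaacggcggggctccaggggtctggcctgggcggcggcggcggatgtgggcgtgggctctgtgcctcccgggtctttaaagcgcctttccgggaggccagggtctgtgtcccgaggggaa
Hells: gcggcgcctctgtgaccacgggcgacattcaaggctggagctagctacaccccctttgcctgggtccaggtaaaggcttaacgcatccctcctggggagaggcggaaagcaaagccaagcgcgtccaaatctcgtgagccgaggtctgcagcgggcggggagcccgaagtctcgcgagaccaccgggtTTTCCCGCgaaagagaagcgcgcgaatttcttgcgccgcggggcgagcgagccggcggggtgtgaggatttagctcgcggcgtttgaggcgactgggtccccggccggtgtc
The Uhrf1 promoter shown is chr17:56304063-56304362 on the plus strand and holds E2F letters at -185 and CCAAT at -150 and -107, where -1 is the last base before the start and 1 the first base after it, with no 0, and a position is that of the first letter. Another Uhrf1 promoter, chr17:56303087-56303386, held CCAAT at -30, -2 and 2 but no E2F letters. The Hells promoter is chr19:38930740-38931039 on the plus strand and holds E2F letters at -62. RefSeq promoters were matched for 35 of the 42 genes, of which 12 S phase genes had 14 promoters and 23 G2/M genes had 24. Of the S phase promoters 6 of 14 (42.9%) held E2F letters, against 1 of 24 promoters of G2/M genes (4.17%, that of Cdk1) and 2.26% of all 32851 promoters. A match of letters is a description of the sequence and no test of binding.

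Of the cyclins and their partners all 6 rose, by 3.78-fold to 5.71-fold. Cdk1 (chr10:69335146-69352938), the kinase that starts mitosis, had 22.2, 13, 15.5 and 23.7 CPM in the healthy and 101, 94.4, 87.6 and 49.3 CPM in the MI mice. Its level in MI 256 was the lowest of the MI mice and still above the highest healthy mouse. Cks1b (chr3:89415472-89418383), a small CDK-binding protein, had 16.1, 15.5, 13.6 and 18.7 CPM in the healthy and 91.1, 70.7, 81.0 and 53.4 CPM in the MI mice. Cks2 (chr13:51645232-51650660), its close relative, had 39.5, 29.3, 29.2 and 31.1 CPM in the healthy and 145, 137, 136 and 100.1 CPM in the MI mice. The groups were far apart for these 3 genes, with rises of 4.19-fold for Cdk1 (log2 fold change 2.07 ± 0.24, adjusted p = 0.000445), 4.37-fold for Cks1b (adjusted p = 0.000126) and 3.78-fold for Cks2 (adjusted p = 0.000103). Ccnb1, the cyclin that activates CDK1 for mitosis, had the largest fold of the 42 genes (5.71-fold, log2 fold change 2.52 ± 0.20, adjusted p = 0.000126). Its relative Ccnb2 rose 5.31-fold and Ccna2, the cyclin of S phase and G2, rose 4.47-fold.

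All 5 kinase genes of mitosis rose, by 3.20-fold to 5.61-fold. Aurka acts at the spindle poles and rose 5.61-fold (log2 fold change 2.49 ± 0.25, adjusted p = 0.000211), and Plk1, which acts at poles, kinetochores and the site of cell cleavage, rose 5.35-fold (log2 fold change 2.42 ± 0.25, adjusted p = 0.000231). Aurkb, the kinase of the chromosome passenger complex, rose 3.56-fold. Bub1 and Bub1b, which hold back anaphase until the chromosomes are attached, rose 3.20-fold and 4.34-fold (adjusted p = 0.00643 and 0.000227). Bub1 was among the genes with the fewest UMIs, at 1.45 to 4.93 CPM in the healthy mice and 6.02 to 15.2 CPM in the MI mice, where 3 UMIs correspond to 0.397 to 0.620 CPM in a healthy and 0.127 to 0.210 CPM in an MI library.

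The promoters of Aurka and Plk1 are shown because they are those of the G2/M genes with the largest log2 fold changes among promoters that hold CHR letters. They come from the same source and read in the same way, and capitals mark CHR letters (TTTGAA or TTCGAA) and CCAAT, on either strand.
Aurka: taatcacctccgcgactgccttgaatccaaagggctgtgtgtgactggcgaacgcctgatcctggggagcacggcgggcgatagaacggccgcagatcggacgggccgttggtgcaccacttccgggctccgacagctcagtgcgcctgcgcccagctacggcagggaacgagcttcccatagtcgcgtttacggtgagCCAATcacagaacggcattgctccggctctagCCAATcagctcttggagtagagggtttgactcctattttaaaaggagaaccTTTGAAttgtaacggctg
Plk1: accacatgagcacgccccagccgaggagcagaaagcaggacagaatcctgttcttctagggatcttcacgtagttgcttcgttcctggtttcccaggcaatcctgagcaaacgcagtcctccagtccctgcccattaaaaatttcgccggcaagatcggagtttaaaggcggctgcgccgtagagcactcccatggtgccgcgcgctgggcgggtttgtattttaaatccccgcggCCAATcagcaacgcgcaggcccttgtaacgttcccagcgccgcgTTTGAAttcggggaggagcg
The Aurka promoter is chr2:172370521-172370820 on the minus strand, with CHR letters at 33 and CCAAT at -51 and -19. The Plk1 promoter is chr7:122159185-122159484 on the plus strand, with CHR letters at 31 and CCAAT at -14. CHR letters stood in 20 of 24 promoters of G2/M genes (83.3%), in 14.3% of those of S phase genes and in 19.2% of all promoters. At least 2 CCAAT stood in 66.7% of the G2/M promoters, 7 of 14 S phase promoters and 11.7% of all promoters. The promoter of Tubb4b, the gene that fell, held CHR letters and CCAAT like most of the others.

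Chromosome passenger and centromere genes rose together. Birc5 (chr11:117849251-117855743), survivin, a subunit of the passenger complex with Aurkb, had 19.4, 11.4, 18.4 and 21.3 CPM in the healthy and 119.5, 116, 107 and 75.4 CPM in the MI mice. All MI mice lay far above the healthy mice, and it rose 5.54-fold (log2 fold change 2.47 ± 0.19, adjusted p = 0.000126). Birc5 lies 23.2 kb from Tk1 on chromosome 11. Cenpa (chr5:30666777-30674830), the histone variant that marks centromeres, had 38.2, 26.4, 30.7 and 21.9 CPM in the healthy and 118, 110.5, 102 and 82.5 CPM in the MI mice. Cenpf (chr1:189640606-189688086), a large protein of the outer kinetochore, had 34.1, 26, 17.5 and 17.7 CPM in the healthy and 100.5, 102, 90.4 and 79.7 CPM in the MI mice. Neither gene showed overlap of the groups, and they rose 3.33-fold (adjusted p = 0.000165) and 3.71-fold (adjusted p = 0.000263).

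The activators of anaphase target cyclin B and securin for destruction. Cdc20 (chr4:118432901-118437352), which activates the ubiquitin ligase APC/C, had 22.5, 17.1, 22.2 and 16.4 CPM in the healthy and 105, 101, 95.5 and 70.5 CPM in the MI mice. Ube2c (chr2:164769898-164778822), the ubiquitin-conjugating enzyme of the same ligase, had 28.1, 23.6, 16.4 and 22.1 CPM in the healthy and 96.6, 114, 94.4 and 66.7 CPM in the MI mice. Both were high in all MI mice, and they rose 4.48-fold (log2 fold change 2.16 ± 0.15, adjusted p = 0.000103) and 3.9-fold (log2 fold change 1.96 ± 0.19, adjusted p = 0.000170).

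Of 8 spindle genes 7 rose and Tubb4b fell. Prc1 (chr7:80294450-80316259), which bundles the microtubules of the midzone between separating chromosomes, had 25.6, 19.0, 14.2 and 18 CPM in the healthy and 78.3, 76.9, 70.7 and 49.0 CPM in the MI mice. It rose 3.39-fold (log2 fold change 1.76 ± 0.19, adjusted p = 0.000307), with no overlap of the groups. The motor Kif20a rose 4.97-fold and the motors Kif23 and Kif11 rose 3.21-fold and 2.60-fold. Ckap2l, Tpx2 and Nusap1, which organise spindle microtubules, rose 4.57-fold, 3.97-fold and 2.79-fold. Tubb4b (chr2:25222160-25224702), a beta-tubulin that resting cells also use for their microtubules, had 412, 336, 481 and 519.6 CPM in the healthy and 301, 354, 287 and 265 CPM in the MI mice. Here the healthy mice were the higher group, with MI 250 inside their range, and Tubb4b fell by 0.62 on the log2 scale (SE 0.13, adjusted p = 0.00605).

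The chromosome structure genes rose less than most other G2/M genes in fold, by 1.89-fold to 2.88-fold, which was not tested against the other groups. Mki67 (chr7:135689784-135716361), which coats mitotic chromosomes and is the usual marker of proliferation, had 29.4, 22.7, 13.1 and 14.7 CPM in the healthy and 79.1, 61.9, 57.3 and 42.5 CPM in the MI mice. Top2a (chr11:98992943-99024189), the topoisomerase that untangles copied DNA, had 39.2, 25.6, 17.3 and 34.3 CPM in the healthy and 105, 92.5, 83.0 and 62.1 CPM in the MI mice. The healthy mice differed among themselves by more than a factor of 2 for both genes, yet all lay below the MI mice, and the rises were 2.88-fold (log2 fold change 1.52 ± 0.26, adjusted p = 0.00210) and 2.78-fold (log2 fold change 1.47 ± 0.23, adjusted p = 0.00153). Smc4 (chr3:69004738-69034623), a core subunit of condensin, had 55.6, 43.6, 47.9 and 53.7 CPM in the healthy and 141, 131, 142 and 103 CPM in the MI mice. Hmgb2 (chr8:57511907-57515999), a chromatin protein that bends DNA, had 257, 238, 202 and 216 CPM in the healthy and 504, 499, 426 and 402 CPM in the MI mice. Both were separated between groups with little spread within them, with rises of 2.42-fold (log2 fold change 1.28 ± 0.11, adjusted p = 0.000152) and 1.89-fold (log2 fold change 0.92 ± 0.11, adjusted p = 0.000428).

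**Figure D2:**
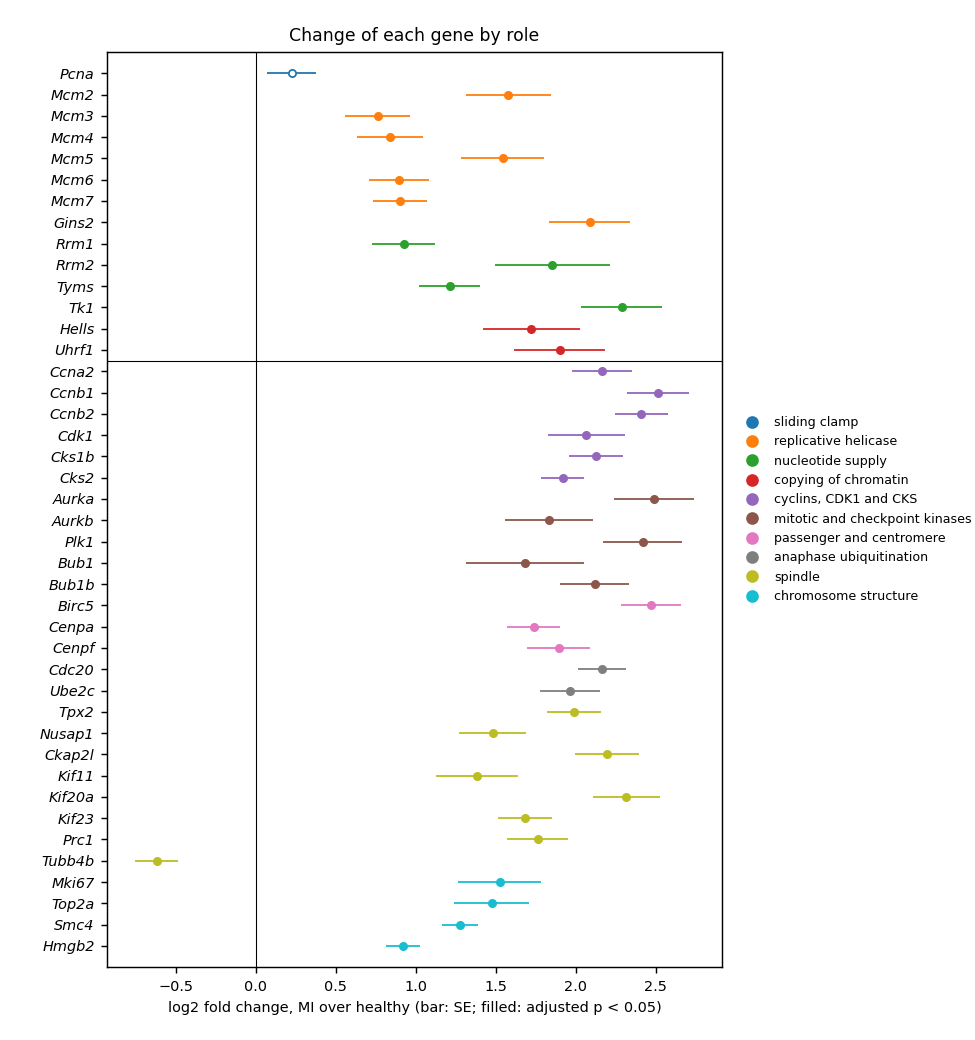
Log2 fold change of MI over healthy EC for each gene (points; bars are SE, n = 4 mice per group), coloured by role; open points did not pass an adjusted p of 0.05. All points but Tubb4b (-0.62) lie above 0, and Pcna (0.22) is the only open point.

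The MI mice kept an order among themselves. MI 256 was the lowest MI mouse for 42 of 42 genes, and MI 244 was the highest for 34 of 42, including 13 of 14 S phase genes. MI 256 also had the fewest UMIs per cell of the 4 MI libraries. The counts of genes called were the same when any single mouse was left out. Without both healthy mice 227 and 228, which shared cells with other libraries, 10 instead of 13 S phase genes were called, and Mcm3, Mcm4 and Rrm1 lost their call (adjusted p = 0.0965, 0.0640 and 0.0546).

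Other genes of the cycle were read from lists of 55 genes of G1/S and DNA replication and 73 genes of G2 and mitosis. Of the former, 39 rose and 0 fell, with a median log2 fold change of 0.72, and Orc1 (3.46 ± 0.79), which marks origins of replication, Dscc1 (2.28 ± 0.37), which helps to load Pcna, and the transcription factor E2f1 (1.94 ± 0.23) had the highest values. Orc1 stood at 0.155 CPM in the healthy and 1.45 CPM in the MI mice, so its healthy level was under that of 3 UMIs and its fitted fold is no measure of size. Dscc1, at 0.959 ± 0.67 CPM in the healthy mice, and Cdca5 of the second list stood close to that level there, so the size of their folds is uncertain. The lowest were Gins1 (-0.11 ± 0.60), Pola2 (-0.10 ± 0.15) and Timeless (-0.04 ± 0.10), none of which passed the test. Of the latter list, 68 rose and 1 fell, with a median of 1.66. Cdca5 (2.96 ± 0.47, from 0.834 ± 0.743 CPM in the healthy mice), which protects the cohesion of sister chromatids, the centrosome kinase Nek2 (2.65 ± 0.21) and the microtubule-depolymerising motor Kif2c (2.61 ± 0.24) were highest. Pttg1, securin, was the gene that fell (-0.54 ± 0.12, adjusted p = 0.00592), and Ckap5 (-0.14 ± 0.14) and Hjurp (-0.01 ± 0.07) did not pass the test.

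The second question was how many cells carried these transcripts. Every cell was thinned at random to 1000 UMIs, so that the deeper MI libraries gained nothing from their depth, and the 582 healthy EC with fewer UMIs were left out (0 in MI). At this depth 2.49, 2.87, 2.72 and 3.31% of EC in the healthy mice and 15.5, 10.5, 11.4 and 5.20% in the MI mice had UMIs of 2 or more of the 14 S phase genes (2.85 ± 0.343% against 10.7 ± 4.25%, SD, n = 4 mice per group). All MI mice were above all healthy mice, with MI 244 at the top and MI 256 at the bottom of the MI group. UMIs of 2 or more of the 28 G2/M genes stood in 9.28, 7.83, 9.77 and 8.67% of healthy and 22.1, 20.1, 18.8 and 13.2% of MI EC (8.89 ± 0.838% against 18.5 ± 3.82%), again with no overlap. In the same libraries 4.95% of healthy and 13% of MI pericyte and smooth muscle-like cells had them, and 6.41% and 9.51% of haematopoietic-like cells, so that MI 256 was at the level of the MI pericyte and smooth muscle-like cells. Without thinning the means were 11.4% against 39.6% for the S phase and 26.9% against 61.6% for the G2/M genes.

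The 4 G2/M genes of highest mean level over the 8 mice were Tubb4b, Hmgb2, Smc4 and Cks2. With 2 or more of the other 24 G2/M genes required, which was decided after seeing the data, the share was 1.40, 1.44, 1.03 and 1.47% in healthy and 12, 8.99, 9.74 and 5.47% in MI EC (1.34 ± 0.206% against 9.04 ± 2.71%). Cell types were set by cluster, and a cluster of 1687 cells (copied cells included) led by Ube2c, Cenpf and Top2a was kept as EC. Whether it held dividing cells of other types, which would then be missing from those types, was not tested. Pericyte and smooth muscle-like cells of the same libraries gave the background, which free RNA can raise in every cell. There 3.47% of healthy cells (7 of 202) and 4.17% of MI cells (9 of 216) had 2 or more S phase genes, at a median of 4247 and 5770 UMIs per cell before thinning, against 2105 and 4131 in the EC. Haematopoietic-like cells, at a median of 4618 and 6960 UMIs, had 1.92% and 3.77%, so the healthy EC were within the range of the other cells and the MI EC above it. For the 24 G2/M genes the MI background was 1.85% in pericyte and smooth muscle-like and 2.46% in haematopoietic-like cells, below all 4 MI mice. These shares cover thinned transcripts only, and a cell that divides can be missed at 1000 UMIs.

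**Figure D3:**
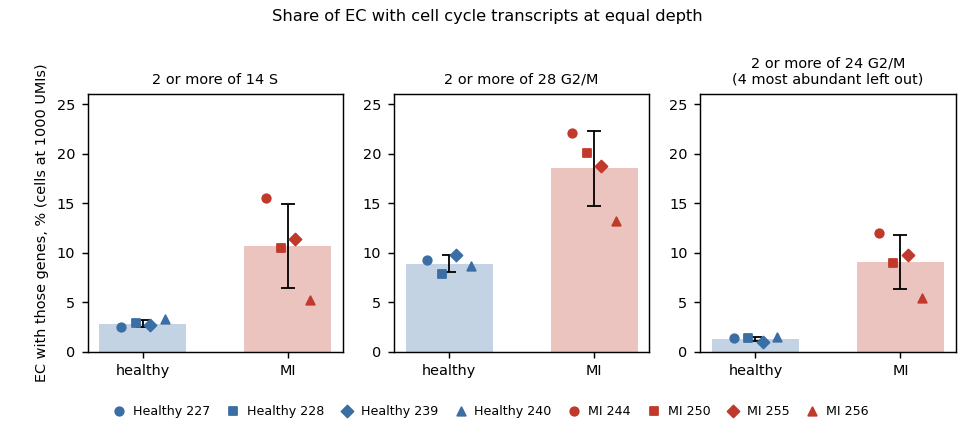
Share of EC per mouse (points) with UMIs of 2 or more genes of each list in cells thinned to 1000 UMIs, with the mean (bars) and SD (lines, n = 4 mice per group). Without the 4 most abundant G2/M genes the healthy mice lie between 1.03 and 1.47% and the MI mice between 5.47 and 12%.

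Next, the balance between the phases was read as the S phase part of all UMIs on the 42 genes, again at 1000 UMIs. This was 19.5, 26.4, 22.3 and 23.8% in the healthy and 27.4, 23.0, 25.1 and 21.5% in the MI mice (23.0 ± 2.88% against 24.3 ± 2.56%), and the groups overlapped. When Tubb4b, Hmgb2, Smc4 and Cks2 were left out, the S phase part was 52.4, 64.7, 61.9 and 65.1% in the healthy but 41.1, 37.1, 38.8 and 37.5% in the MI mice (61.0 ± 5.91% against 38.6 ± 1.81%), with no overlap and in the opposite direction. Of the EC with 2 or more genes of either phase, leaving out the same 4 genes, 63.8% in healthy and 42.7% in MI mice had S phase genes alone, 13.8% and 22.6% had both, and 22.4% and 34.7% had G2/M genes alone (means over mice). With all 28 G2/M genes the order of the groups turned for both single-phase sets, with 19.1 ± 3.36% and 21.6 ± 3.77% for S phase genes alone and 74 ± 3.69% and 56.7 ± 8.38% for G2/M genes alone, and both phases stood in 6.95 ± 1.27% and 21.7 ± 4.85%. With the healthy S phase share at the level of other cell types, healthy cells with S phase genes alone were not told apart from background. With all 28 G2/M genes, 7.70, 5.57, 5.35 and 2.64% of MI EC had S phase genes alone. Of the MI pericyte and smooth muscle-like and haematopoietic-like cells, 4.17% and 3.77% had 2 or more S phase genes, with or without G2/M genes. MI 256 was below these shares, so part of the MI cells with S phase genes alone may be background too.

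Where the UMIs of each gene sat was read with the other 41 genes. Top2a was almost limited to cells that also had 2 or more of the others, which held 93.5 ± 4.48% of its UMIs in healthy and 94.9 ± 0.934% in MI mice (at 1000 UMIs per cell). Such cells were 17.6% of healthy and 30.3% of MI EC. For Pcna they held 25.8 ± 1.60% and 49.1 ± 12% of its UMIs, from 15.6% and 28.8% of cells. For Tubb4b they held 9.77 ± 0.868% and 36.7 ± 6.98% of its UMIs, from 7.95% and 24.5% of cells, so that its healthy UMIs lay in these cells little more often than the cells themselves. In cells with none of the other genes, Hmgb2 had 142 ± 23.7 CPM in healthy and 141 ± 17.3 CPM in MI mice, so its level in these cells differed by less than the spread between mice. Pcna likewise had 49.4 ± 10.1 and 50.1 ± 2.72 CPM there. Tubb4b in the same cells had 427 ± 101 CPM (304 to 542) in healthy and 241 ± 26 CPM (217 to 277) in MI mice with no overlap, whereas in cells with 2 or more other genes its mean was 546 and 433 CPM.

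In MI EC the genes were then placed along the cycle. For each gene, cells were sorted by the other genes into those with 2 or more S phase genes only, with 2 or more genes of both phases, with 2 or more G2/M genes only and the rest, without using Tubb4b, Hmgb2, Smc4 and Cks2 to sort. Since the genes of a phase share their cells, this is a description with no test. Of the 14 S phase genes 3 had their highest mean in cells with S phase genes only (Mcm4 in 4 of 4 mice, Mcm6 in 3 of 4 and Mcm5 in 2 of 4) and 11 in cells with both, 6 of these in every MI mouse. Mcm5 (152 ± 26.5 CPM in S phase only, 144 ± 38.8 CPM in both) and Mcm3 (184 ± 48.7 and 192 ± 58.4 CPM, highest in both in 2 of 4 mice) differed between these cells by less than the spread between mice. Mcm4 had 128 CPM in S phase only, 66.0 CPM in both, 28 CPM in G2/M only and 18.6 CPM in other cells. Rrm2 had 72.6, 566, 169 and 9.09 CPM in the same order, and Tk1 had 59.3, 416, 144 and 5.70 CPM. Rrm2 and Tk1 stood highest in cells with both in 4 of 4 mice.

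Of the 28 G2/M genes 14 had their highest mean in cells with both phases and 14 in cells with G2/M genes only, 3 and 10 of them in every MI mouse. The others had the higher of these levels in some mice only, such as Kif11 (87.3 CPM in both and 86.3 CPM in G2/M only), Mki67 (445 and 413 CPM) and Cks1b (369 and 397 CPM), each in 2 of 4 mice. Top2a had 53.3, 845, 492 and 5.43 CPM in S phase only, both, G2/M only and other cells, and Aurkb had 10.5, 189, 95.3 and 1.69 CPM. Ccna2 had 17.6, 370, 247 and 3.66 CPM in these cells. Cenpf, at 3.68, 445, 789 and 9.87 CPM, and Cenpa, at 23.9, 418, 827 and 19.5 CPM, were highest in cells with G2/M genes only, which means fewer than 2 of the S phase genes and not none of them. Ccnb1 followed the same pattern with 4.03, 164, 297 and 2.85 CPM, and so did Cdc20 with 17.4, 396, 729 and 11.3 CPM. Tubb4b had 280, 771, 746 and 238 CPM, so that it was higher beside mitotic genes within MI EC although it was lower in MI than in healthy EC as a whole. With cells counted over all 42 genes, those with genes of both phases had 1.75 ± 0.167 times the median UMIs of those with neither in the MI mice. An alternative without 995 cells of high doublet score changed the differences in shares from 7.81 to 7.63 percentage points for the S phase and from 9.64 to 9.02 points for the G2/M genes.

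**Figure D4:**
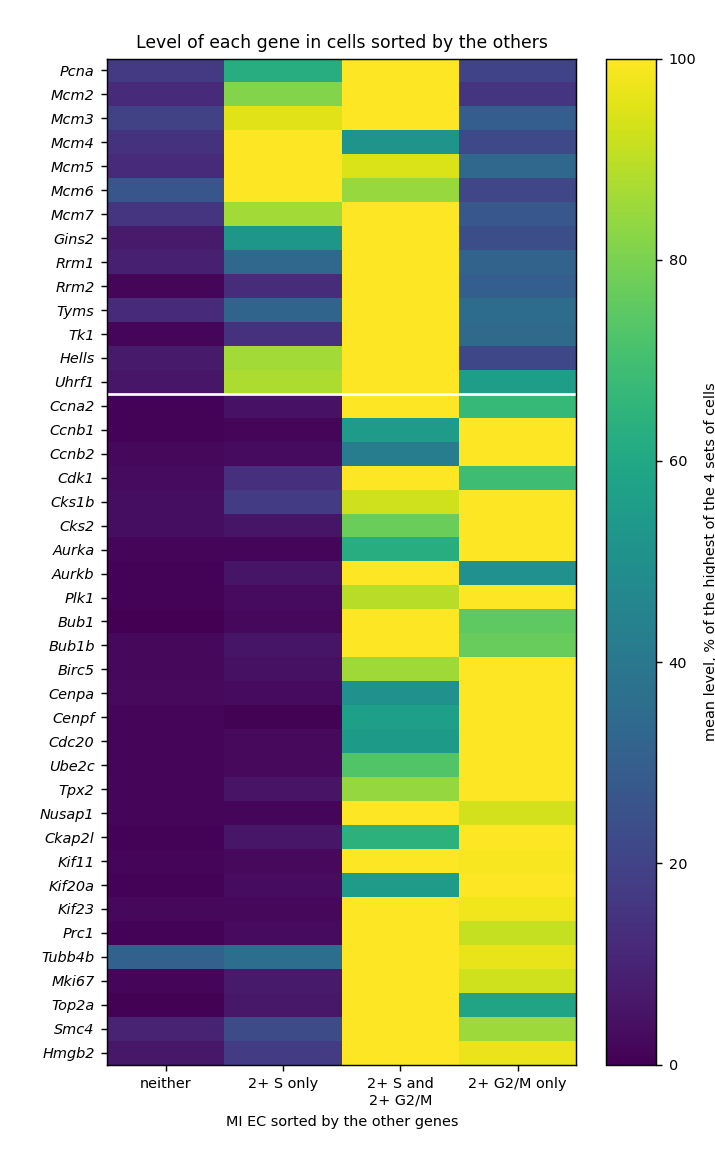
Mean level of each gene in 4 sets of MI EC sorted by the other genes, as % of the highest of the 4 (colour; mean of 4 MI mice). Mcm4 is highest in cells with S phase genes only, Rrm2, Tk1 and Top2a in cells with both, and Ccnb1, Cenpa and Cenpf in cells with G2/M genes only.

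The last comparisons asked in which kinds of EC the genes stood higher or lower. Classes were set by marker UMIs at 1000 UMIs per cell, namely Apln-class cells with Apln, a marker of sprouting tip cells, Gja4-class cells with the arterial connexin Gja4, Car4-class cells with the capillary carbonic anhydrase Car4, and Plvap-high cells with 3 or more UMIs of Plvap, a protein of capillary diaphragms. Cells with markers of several classes (269 in MI) were in none. The MI mice had 1273 Apln-class, 1166 Gja4-class, 1417 Car4-class and 589 Plvap-high cells, and most MI EC (11257) had none of the markers at this depth. Each class was compared with all other EC of the same mouse by edgeR with the mouse as a block, over the 4 MI mice.

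Apln-class cells had more of all 14 S phase genes, with a median log2 fold change of 0.57 (0.37 to 0.81), while 4.45% of all genes tested were called higher. Rrm2, for example, had 72.2, 134, 68.7 and 67.9 CPM against 67.1, 46.5, 52.5 and 27.1 CPM in other EC of the same mice, and was higher in the class in 4 of 4 mice (log2 fold change 0.81 ± 0.18, adjusted p = 0.00681). The gap was wide in MI 250 and MI 256 and small in MI 244. Mcm6 had 129.5, 109, 94.3 and 69.7 CPM against 95.2, 70.5, 80.7 and 46.9 CPM (log2 fold change 0.47 ± 0.07, adjusted p = 0.000616). Tyms (0.58 ± 0.09), Tk1 (0.79 ± 0.20) and Pcna (0.37 ± 0.08) were higher too in 4 of 4 mice. Of the G2/M genes 3 of 28 were called higher, Top2a (log2 fold change 0.56 ± 0.15, adjusted p = 0.0267), Aurkb (log2 fold change 0.66 ± 0.18, adjusted p = 0.0286) and Cdk1 (log2 fold change 0.54 ± 0.15, adjusted p = 0.0395), with a median of 0.27 over the 28. Mki67 had 76.6, 101, 46.9 and 86.3 CPM against 79.4, 58.3, 58.4 and 38.9 CPM and did not pass the test (adjusted p = 0.191), with 2 mice on each side. Of the other cycle genes, 29 of 55 for replication and 13 of 73 for mitosis were higher and 0 lower, against 4.76% of all genes tested that were lower. The Apln-class cells had a median of 4033 to 5474 UMIs per cell, and from sums of cells thinned to 1000 UMIs 4 of 14 S phase genes were called, with a median of 0.48 (0.24 to 0.92) over the 14, as were 188 of all 10395 genes tested. Without MI 250, 7 S phase genes were called, and the number of G2/M genes was 0 without MI 250 or MI 256 and 8 without MI 244 or MI 255. Over all genes tested, 309 of 12198 were higher without MI 250 and 321 of 12672 without MI 256. The numbers were 415 of 12172 without MI 244 and 428 of 12102 without MI 255.

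By cell, 24.2, 20.6, 12.4 and 10.0% of Apln-class cells of the MI mice had 2 or more S phase genes, against 14.6, 9.74, 11.3 and 4.86% of their other EC. The class was higher in every MI mouse, though by only 1.06 percentage points in MI 255. For the G2/M genes the share in the class minus that in other EC was 6.52, 10.4, -0.356 and 7.29 percentage points, so it was higher in the class in 3 of 4 mice. In the healthy mice 8.57, 3.45, 8.65 and 8.13% of Apln-class cells had 2 or more S phase genes, against 2.39, 2.86, 2.53 and 3.10% of other EC, from 29 to 123 Apln-class cells per mouse.

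Gja4-class cells had less of all 14 S phase genes and all 28 G2/M genes, with median log2 fold changes of -0.94 and -1.23, while 11.2% of all genes tested were called lower. Top2a had 38.8, 30.1, 32.8 and 9.85 CPM against 109.9, 95.7, 87.3 and 67.0 CPM in other EC (log2 fold change -1.66 ± 0.12, adjusted p = 9.16e-10). Hmgb2 had 246, 250.1, 204 and 179 CPM against 523, 512, 445 and 422 CPM (log2 fold change -1.11 ± 0.05, adjusted p = 9.06e-13), so that it was lower in the class in all 4 mice. Mki67 (-1.40 ± 0.16), Birc5 (-1.14 ± 0.15) and Cdk1 (-1.26 ± 0.14) were lower by more than 1 log2 unit, and MI 256 had the least of each. Tyms (-0.81 ± 0.08) and Pcna (-0.50 ± 0.08) were lower by less, and Mcm6 was the S phase gene nearest to the other EC (log2 fold change -0.23 ± 0.08, adjusted p = 0.0470), a call lost in 6 of 10 alternatives, with a log2 fold change of -0.32 to -0.17 over the 10. Of the other cycle genes, 37 of 55 for replication and 64 of 73 for mitosis were lower, and 0 and 1 were higher against 10.9% of all genes tested. In cells, 6.71, 7.92, 8.42 and 1.39% of the class had 2 or more S phase genes, against 16.3, 10.6, 11.7 and 5.55% of other EC of the MI mice. In the healthy mice the class had 2.54 ± 0.192% and other EC 2.86 ± 0.365%, which did not differ beyond the spread between mice. From thinned sums 8 of 14 S phase and 23 of 28 G2/M genes were called lower, with medians of -0.95 and -1.40, and so were 670 of all 10428 genes tested.

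Car4-class cells had less of 8 of 14 S phase and 19 of 28 G2/M genes, with medians of -0.42 and -0.40, while 7.08% of all genes tested were called lower. Tyms had 79.7, 64.5, 85.1 and 40.0 CPM against 108, 85.3, 96.9 and 61.1 CPM in other EC (log2 fold change -0.40 ± 0.08, adjusted p = 0.000139). Hmgb2 had 398, 443, 364 and 268 CPM against 511, 506, 427 and 415 CPM (log2 fold change -0.32 ± 0.06, adjusted p = 1.46e-05). Both were lower in 4 of 4 mice. Top2a (-0.65 ± 0.10), Birc5 (-0.48 ± 0.08) and Mki67 (-0.47 ± 0.12) were called lower as well, although in MI 255, with only 107 Car4-class cells, Top2a and Mki67 were higher in the class. Pcna (log2 fold change -0.17 ± 0.08, adjusted p = 0.196) and Cdk1 (log2 fold change -0.27 ± 0.10, adjusted p = 0.0578) did not pass the test. Of the other cycle genes, 9 of 55 for replication and 28 of 73 for mitosis were lower, and 2 and 1 were higher against 5.88% of all genes. DESeq2 called 3 S phase and 7 G2/M genes lower. Without MI 256, 9 G2/M genes were called lower, as were 699 of all 12609 genes tested. From thinned sums 1 S phase and 14 G2/M genes were called lower, with medians of -0.48 and -0.64. DESeq2 called 423 of 16520 genes lower in all, and the test of thinned sums 263 of 10318.

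In Plvap-high cells, of the 14 S phase genes 0 passed the test in either direction (median log2 fold change -0.07), while 10.6% of all genes tested were called lower and 9.8% higher, but 26 of 28 G2/M genes were lower, with a median of -1.02. Tyms had 120.0, 83.2, 103 and 74.2 CPM against 106, 83.0, 96 and 58.8 CPM in other EC (log2 fold change 0.18 ± 0.10, adjusted p = 0.227). Mki67 had 22.3, 32.4, 34.0 and 2.85 CPM against 82.7, 62.8, 60.0 and 43.5 CPM (log2 fold change -1.23 ± 0.19, adjusted p = 3.72e-05), so that it was lower in the class in 4 of 4 mice. Hmgb2 had 235, 288, 282 and 154 CPM against 521, 506, 443 and 408 CPM (log2 fold change -0.91 ± 0.10, adjusted p = 7.21e-07). Birc5 (-1.02 ± 0.15), Cdk1 (-0.48 ± 0.13) and Top2a (-0.70 ± 0.16) were lower in 4 of 4 mice too. Aurkb (-0.30 ± 0.18) and Bub1b (-0.63 ± 0.26) did not pass the test. Of the other cycle genes, 5 of 55 for replication and 46 of 73 for mitosis were lower and 0 higher, beside the shares of all genes given above. The difference between the phases was not tested. By cell, 12.6, 9.09, 7.74 and 8.89% of the class had 2 or more S phase genes, against 15.6, 10.5, 11.7 and 5.15% of other EC. For the G2/M genes the share in the class minus that in other EC was -8.57, -6.61, -4.64 and 4.65 percentage points. Both shares were lower in the class in MI 244, MI 250 and MI 255 and higher in MI 256, which had 45 Plvap-high cells. At an unadjusted p below 0.05, 2 of the 14 S phase genes were lower, with no share of all genes given at that threshold. DESeq2 called 0 of the 14 and 859 of all 16520 genes lower. With the class set from 2 or from 5 UMIs of Plvap, 2 and 4 of the 14 S phase genes were called lower. Over all genes tested, 1615 of 12609 and 1009 of 12642 were called lower in these fits. Plvap-high cells were the deepest class, with a median of 6487 to 7477 UMIs per cell. From thinned sums 13 G2/M genes and 1 S phase gene were called lower, as were 503 of all 10599 genes tested.

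**Figure D5:**
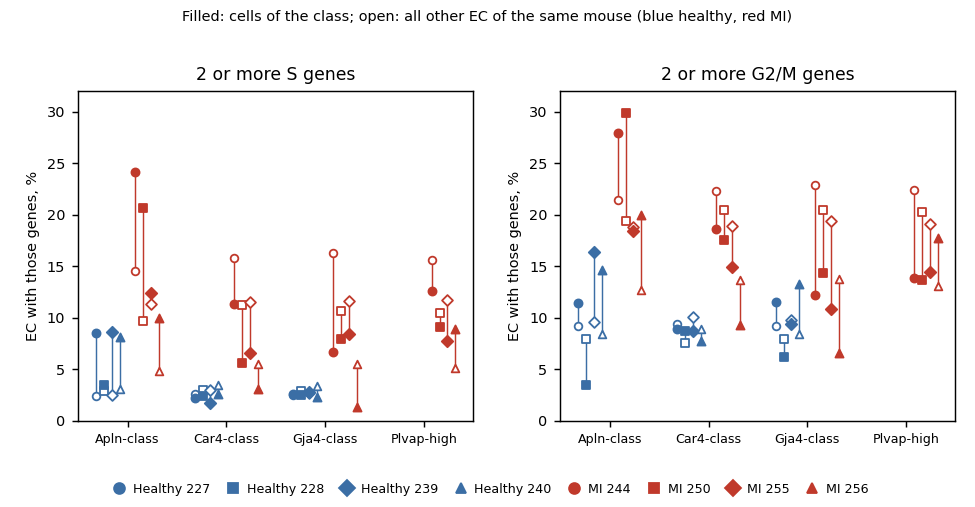
Share of cells with UMIs of 2 or more S phase genes (left) or G2/M genes (right) at 1000 UMIs, for each class (filled) and all other EC of the same mouse (open, joined by a line; healthy blue, MI red). Filled points lie above open ones for the S phase genes in Apln-class cells of every mouse and below them in Car4-class cells of every mouse. The Apln-class point of healthy mouse 228 rests on 1 of 29 cells. Plvap-high cells are shown for the MI mice.

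Within classes MI was compared with healthy again, over genes that passed the filter on low counts, which some of the 42 passed through the MI mice alone, so no share of them is read as a result. In Car4-class cells 11 S phase and 21 G2/M genes were tested, of which 7 and 20 rose and 0 and 1 fell, while 7.41% of all genes tested rose and 8.21% fell. Hmgb2 had 202, 209, 148 and 173 CPM in the healthy and 398, 443, 364 and 268 CPM in the MI mice there (log2 fold change 0.94 ± 0.15, adjusted p = 0.00118). Every MI mouse was above every healthy mouse. Tyms had 27.1, 24.1, 30.0 and 32.6 CPM in the healthy and 79.7, 64.5, 85.1 and 40.0 CPM in the MI mice (log2 fold change 1.12 ± 0.20, adjusted p = 0.00253), and Tubb4b was the gene that fell (log2 fold change -0.57 ± 0.15, adjusted p = 0.0231). In Gja4-class cells 9 and 8 genes were tested, of which 4 and 6 rose and 0 and 1 (Tubb4b) fell, while 6.37% of all genes rose and 6.47% fell. These counts depended on single mice. Without healthy mouse 227, for example, 12 and 25 genes were tested and 1 and 20 rose, beside 457 of all 8872 genes. The ranges without each mouse are given in the last section. Hmgb2 had 179.7, 206, 164 and 154 CPM in the healthy and 246, 250.1, 204 and 179 CPM in the MI mice in these arterial cells, with overlap of the groups, and did not pass the test (log2 fold change 0.29 ± 0.15, adjusted p = 0.224). In Apln-class cells 14 and 26 genes were tested and 0 and 0 rose, while 2.02% of all genes did. The median log2 fold change was 0.61 for both lists and -0.004 over all genes tested. At an unadjusted p below 0.05, 11 of these 40 genes were higher in MI Apln-class cells, whose healthy sums came from 29 to 123 cells per mouse. The share of all genes at that threshold is not given, so this count is not read as a result. Plvap-high cells could not be compared, since the healthy mice had 1 or 2 of them each. Sums of thinned cells left fewer genes to test. In Car4-class cells 1 of 6 S phase and 4 of 6 G2/M genes rose, beside 218 of all 5923 genes tested. In Gja4-class cells 0 of 4 and 0 of 3 rose, beside 101 of all 4478.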

How the data were processed

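UMI counts of 31028 cells from 8 mice, 1 library each, were analysed. The authors made these counts from 3′ tags with Cell Ranger on mm10 and deposited them unnormalised for 16791 genes after keeping cells with over 400 genes and under 20% mitochondrial UMIs, and the submitters' processing notes also name R 3.5.2 and Seurat 2.3. No column was left out (0).

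Groups came from the labels. Members and lists were chosen with earlier results of these data known. Copied cells (90% or more of UMIs matching) were left out of the library in which they had fewer UMIs. Cells were clustered with Seurat 5.3.0 (scale 10000, 32 principal components, resolution 0.6), and clusters led by markers of other types were left out. Cells were thinned to 1000 UMIs where shares were compared. Scrublet (scanpy 1.11.5) marked 2 cells as doublets, which is too few to have worked, so an alternative left out the 995 highest scores (0.8% per 1000 cells). Sums per mouse were tested with edgeR 4.0.16 (R 4.3.3, TMM, filterByExpr, quasi-likelihood, Benjamini-Hochberg over all genes at 0.05), with the mouse as a block between classes, since both sums came from 1 animal. SE is the log2 fold change divided by the root of F. P-values of MI against healthy rest on the spread between these mice. Those between classes rest on the spread of the difference between a class and the other EC of its mouse.

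Values per mouse were given for the markers that the study names for its proliferating cluster, for the 6 S phase and 6 other G2/M genes of highest mean level, and for genes that fell or did not pass, and folds for all 42. Genes named in the class comparisons were chosen after their values were seen. Promoters were from RefSeq (GRCm38.p6), and gene positions from GENCODE on GRCm38. Alternatives were DESeq2 1.42.0, limma-voom 3.58.1, RLE scaling, no filter on low counts, thinned sums, copied cells kept, all cell types kept (copied cells still left out), no cells with 2 or more haematopoietic UMIs after thinning to 1000 UMIs, other class limits and each mouse left out. The fits were also run on simulated data, from which no result given here is drawn. Depth was 4840064 to 7561653 EC UMIs per healthy and 14280903 to 23568102 per MI library.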

Additional observations from a re-analysis of the deposited data

Results flagged for a closer look

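Of 90 groups of 4 mice, 3 held a mouse far from the other 3, and chance flags about 1 in 20 groups. Tk1 had 13.1 CPM in healthy mouse 240 and 6.95 to 7.80 CPM in the other healthy mice. Aurkb had 7.60 CPM in the same mouse and 4.50 to 4.96 CPM in the others. Ccnb1 had 26.1 CPM in MI mouse 256 and 43.8 to 47.0 CPM in the other MI mice. Among the cells left out of the EC, pericyte and smooth muscle-like cells were read for UMIs of 2 or more G2/M genes at 1000 UMIs. The shares were 13% of the 216 cells of the MI mice and 4.95% of the 202 cells of the healthy mice. Without the 4 most abundant genes they were 1.85% and 0%. These cells were pooled over the mice of a group, so the difference between the groups was not tested.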

How the results depend on the processing

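For MI against healthy, the numbers of S phase genes (13 higher) and G2/M genes (27 higher, 1 lower) were the same under every alternative run and without any single mouse, except for the S phase genes without healthy mice 227 and 228 together (10, chosen after seeing the data). No paired analysis was possible because the mouse numbers are not shared between healthy and MI mice.

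Between classes the calls rested on pairing the class with the other EC of its mouse. Without the mouse as a replicate block, S phase genes called lower were 5 in Gja4-class and 0 in Car4-class cells, those called higher in Apln-class cells were 0, and G2/M genes called lower were 21 in Gja4-class, 0 in Car4-class and 15 in Plvap-high cells, with 0 called higher in Apln-class cells. The S phase medians were -0.91, -0.43 and 0.59 then, against -0.94, -0.42 and 0.57 with the block. Over all genes, those called lower fell from 1373 to 578 (Gja4-class), 877 to 180 (Car4-class) and 1344 to 879 (Plvap-high). Those called higher fell from 547 to 23 (Apln-class). From thinned sums, with fewer UMIs, the S phase counts were 8 (Gja4-class), 1 (Car4-class), 4 (Apln-class) and 1 (Plvap-high), and 13 G2/M genes were lower in Plvap-high cells. Within classes, thinned sums gave 0 of 4 S phase and 0 of 3 G2/M genes higher in Gja4-class, 1 of 6 and 4 of 6 in Car4-class, and 1 of 6 G2/M genes in Apln-class cells. Over all genes, 101 of 4478, 218 of 5923 and 49 of 2902 were higher in these 3 fits. DESeq2 called 3 S phase and 7 G2/M genes lower in Car4-class and 1 G2/M gene higher in Apln-class cells. With Plvap-high from 2 UMIs, 5 G2/M genes were higher in Apln-class cells, 2 S phase genes were lower in Plvap-high cells and 2 rose within Gja4-class cells, and from 5 UMIs 4 S phase genes were lower in Plvap-high cells. With classes not exclusive this count was 1. The cause of these changes was not tested.

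Leaving out 1 mouse at a time gave ranges of called genes. For S phase these were 12 to 14 lower in Gja4-class, 7 to 10 lower in Car4-class, 7 to 14 higher in Apln-class and 0 to 2 lower in Plvap-high cells. For G2/M they were 27 to 28, 9 (without MI 256) to 20, 0 to 8 and 18 to 26. Over all genes, in the same order and directions, they were 990 to 1181, 615 to 699, 309 to 428 and 917 to 1255. Within classes, MI over healthy, S phase genes higher ranged from 0 to 6 in Gja4-class (0 without MI 244 or MI 255), 4 (without MI 244) to 12 (without MI 256) in Car4-class and 0 to 1 in Apln-class cells. G2/M genes higher ranged from 3 (without MI 244) to 20 (without healthy 227), from 20 to 27 and from 0 to 2. The number that passed the filter moved with them, from 8 in the full data to 6 and 25 in Gja4-class cells and from 21 to 28 in Car4-class cells, and G2/M genes lower from 0 to 1 in Gja4-class and in Car4-class cells. In Gja4-class cells the G2/M count was also 12 to 19 without any other healthy mouse and 14 without MI 256. MI over healthy within Plvap-high cells could not be fitted under any setting, with 0 to 4 healthy cells of the class per mouse.

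The difference in the share of EC with S phase genes (7.81 percentage points, 6.19 to 9.63 without 1 mouse) was 4.02 at 500 UMIs, 28.2 without thinning, 11.8 with 1 or more and 4.23 with 3 or more genes. For the G2/M genes (9.64 points, 8.47 to 11.4) it was 34.8 without thinning and 2.94 with 1 or more genes. The S phase part of UMIs (1.24 points higher in MI, 0.0682 to 2.37) turned to -22.4 without the 4 most abundant genes. Among single genes, Pcna in Car4-class cells turned to 0.059 and Aurkb in Plvap-high cells to 0.36 with thinned sums, and Tyms in Plvap-high cells to -0.083 with Plvap-high from 5 UMIs. Depth may limit the genes of few UMIs most, above all in class sums of the healthy mice, which was not tested.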
